A study of Mus musculus with 2 samples.

Results

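Genes of the leukocyte adhesion cascade, 9 of the 27998 genes in both count matrices, were followed across the cell types of large healing mouse wounds. They were chosen by gene symbol and function, with earlier results of these data known. The 5 endothelial members were the selectins Sele and Selp and the immunoglobulin-type adhesion molecules Icam1, Icam2 and Vcam1. The 4 leukocyte members were the selectin ligand Selplg and the integrin genes Itgal, Itga4 and Itgb2. All 9 were matched once by symbol. 2 libraries of single cells were measured, WT_LW and TLR9agonist_LW, and each pooled the cells of several mice into 1 library. Both groups were wild-type male C57BL/6J mice aged 6 to 8 weeks per the study's methods, with a circular dorsal wound 1.8 cm across. WT_LW wounds received PBS and TLR9agonist_LW wounds ODN2395, a CpG oligodeoxynucleotide agonist of the DNA sensor TLR9, on days 0, 3 and 6, and the wound centre was taken 2 days after the scab came off. The labels and methods name PBS as the control, whereas another passage of the study names a control oligonucleotide for wounds called WT_LW, so each ratio below compares ODN2395 with a control whose identity rests on the labels. With 1 library per group no difference between the groups could be tested, so every interval here is a 95% interval of counting error only, and treatment, pooled mice and library preparation cannot be told apart.

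White blood cells leave the blood mainly through small venules. Endothelial selectins catch passing cells by sugar-bearing ligands such as PSGL-1, the product of Selplg, and slow them to a roll. Integrins on the leukocyte, activated by chemokines, then bind immunoglobulin-type partners on the vessel wall and the cell stops and crosses: LFA-1, made of the products of Itgal and Itgb2, binds ICAM-1 and ICAM-2, and the α4 integrins, which contain the product of Itga4, bind VCAM-1. Sele, Vcam1 and Icam1 are known to be switched on in endothelium by inflammatory cytokines, whereas Icam2 is made by resting endothelium.

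Cells were gated 1 by 1 from marker genes that included none of the 9 members. The libraries held 12800 and 13751 barcodes with 99374045 and 132339022 UMIs (unique molecular identifiers, each counted as 1 captured RNA molecule), and 10395 and 11811 cells were used after filters and removal of predicted doublets. The gate found 611 blood endothelial cells in WT_LW (4896119 UMIs) and 366 in TLR9agonist_LW (3932882 UMIs), 567 and 370 pericytes, and 4904 and 4220 leukocytes, most of them T cells (3207 and 2689) and macrophages or monocytes (1356 and 846). No class had a marker of another class among its 10 leading genes. This says little, since T cells and keratinocytes had 0 and blood endothelium 1 of their own markers there. The blood endothelial markers Kdr, Plvap, Emcn, Flt1 and Vwf together stood at 3099 and 3050 UMIs per 1000000 UMIs of the class (CPM) in the cells gated as blood endothelium. The gate left 16.7% and 20.2% of the cells without a class. Of 47 cell barcodes present in both libraries, 33 were used in both, and 3 of those had the same class in both.

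The endothelial and the leukocyte members were separated by cell type in both libraries. All 5 endothelial members were at least 2-fold higher in blood endothelium than in all leukocytes together, and all 4 leukocyte members at least 2-fold lower, in WT_LW as in TLR9agonist_LW. Among all genes with at least 50 UMIs in the compared classes, 22.5% were that much higher and 18.0% that much lower in endothelium in WT_LW, and 17.3% and 21.0% in TLR9agonist_LW. Sele stood apart most, at 258 CPM in the endothelium and 0.989 CPM in the leukocytes of WT_LW (261-fold), and Selp followed with 617 and 4.82 CPM (128-fold). Icam1 and Vcam1 were shared with other cells, and their endothelial excess over leukocytes in WT_LW was 3.74-fold and 3.43-fold. The ratios of these last 2 genes in TLR9agonist_LW were 10.5-fold and 8.52-fold. Icam2 differed 19.1-fold in WT_LW and 21.4-fold in TLR9agonist_LW. Single leukocyte classes fell short of 2-fold in places. In WT_LW Icam1 was 1.33-fold that of neutrophils (log2 ratio 0.41, interval −0.22 to 1.13) and Vcam1 1.59-fold that of macrophages and monocytes. Against mast cells the log2 ratios in WT_LW were −0.495 for Itgal (−1.60 to 0.81) and −0.52 for Itgb2 (−1.505 to 0.63). In TLR9agonist_LW Itgb2 was at −0.56 (−2.09 to 1.25). Each other ratio to a single class with UMIs on both sides passed 2-fold.

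**Figure D1:**
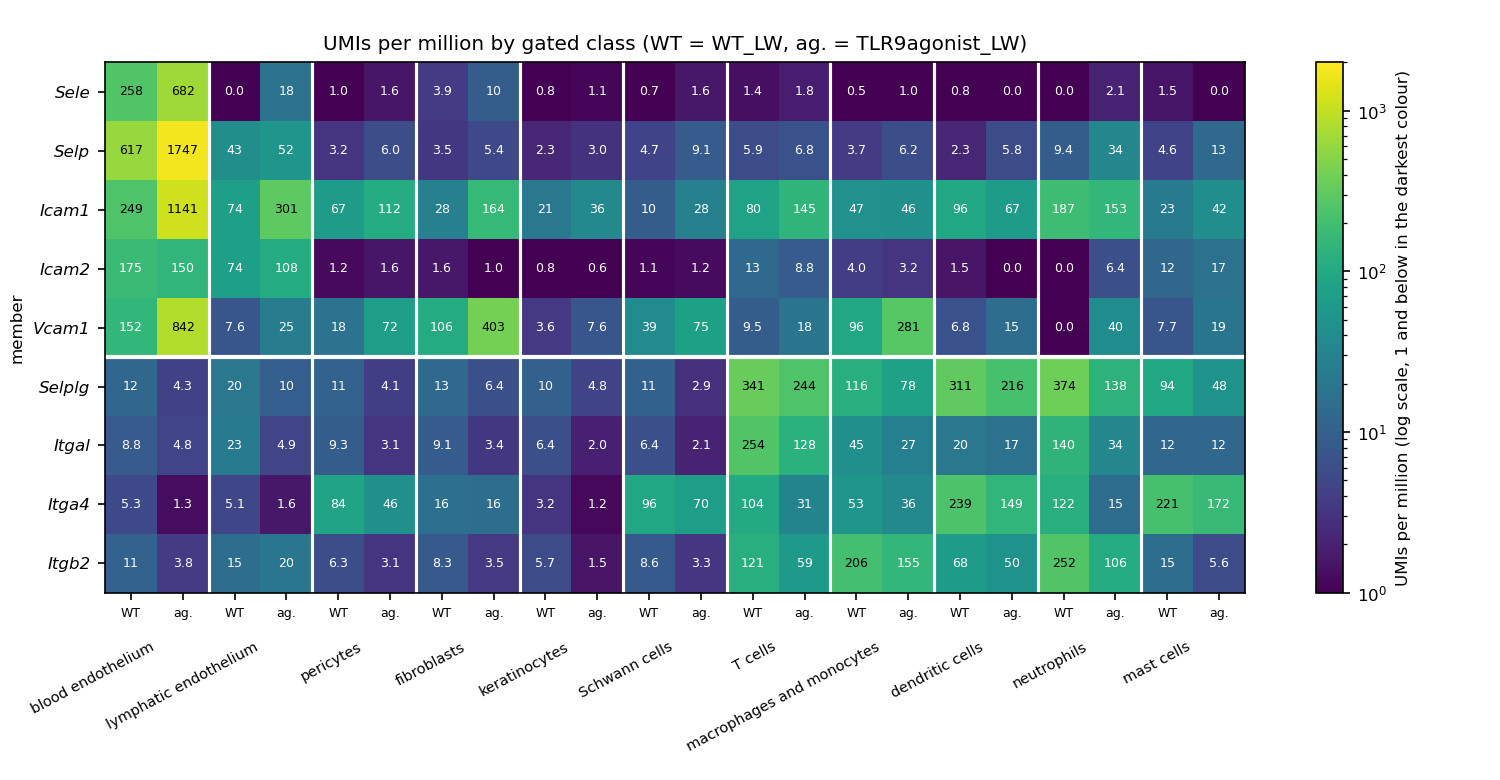
CPM of each member (rows) in 11 gated classes and 2 libraries (columns, WT for WT_LW and ag. for TLR9agonist_LW), on a logarithmic colour scale with the value printed in each cell. The endothelial members above the white line peak in the blood endothelium columns, up to 1747 for Selp, and the leukocyte members below it are highest in columns of leukocytes, up to 374 for Selplg in the neutrophils of WT_LW.

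Pericytes, the mural cells that wrap small vessels, carried little of this programme. Against all leukocytes, none of the 8 members counted was at least 2-fold higher in pericytes in either library, 5 were that much lower in WT_LW and 4 in TLR9agonist_LW (all genes: 21.4% higher and 18.3% lower in WT_LW, 18.4% and 22.0% in TLR9agonist_LW). Sele stood at 1.015 and 1.57 CPM and Icam2 at 1.22 and 1.57 CPM in the pericytes of WT_LW and TLR9agonist_LW. The exception was Itga4, at 83.6 CPM in the pericytes and 91.7 CPM in the leukocytes of WT_LW (log2 ratio −0.13, interval −0.29 to 0.02). Icam1 was likewise level between these classes, at 67.4 and 66.5 CPM.

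E-selectin and P-selectin were the most restricted members. Sele (ENSMUSG00000026582, GRCm38 chromosome 1, 164048234 to 164057677, plus strand) and Selp (ENSMUSG00000026580, chromosome 1, 164115264 to 164150026, plus strand) lie on the same chromosome in the mouse selectin gene cluster. Blood endothelium held 90.3% of the Sele UMIs counted in WT_LW and 81.5% in TLR9agonist_LW, and 88.0% and 85.3% of the Selp UMIs. Sele was measured at 258 CPM (95% interval 244 to 272, 1262 UMIs) in the endothelium of WT_LW and at 682 CPM (656 to 708, 2682 UMIs) in that of TLR9agonist_LW. Selp stood at 617 CPM (595 to 639) and 1747 CPM (1706 to 1789). The agonist level was thus 2.65-fold the control level for Sele (log2 ratio 1.40, interval 1.31 to 1.501), and 2.83-fold for Selp (log2 ratio 1.502, interval 1.44 to 1.56). Outside blood endothelium none of the other 10 classes compared exceeded 18.0 CPM of Sele in either library, and the next highest Selp levels were those of lymphatic endothelium, 43.1 and 52.4 CPM.

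RefSeq promoter sequence was at hand for 4 of the 9 members, and the 250 bases before the start are shown for the 3 that differed between the libraries in endothelium, so that the letters can be set beside the values (GRCm38.p6, plus strand, 5′ to 3′). Capitals mark matches, on either strand, to a κB-like motif GGANNNTCC, which reads the same on both strands, a CRE/ATF-like motif TGACNTCA and the TATA letters TATAAA. The marked motifs do not overlap each other. The Sele window is chr1:164047984-164048233, the Selp window chr1:164115014-164115263 and the Icam1 window chr9:21015690-21015939. The Icam1 window ends short of the annotated gene start at 21015985 given below. Distances before the start are counted from the end of each window.
Sele: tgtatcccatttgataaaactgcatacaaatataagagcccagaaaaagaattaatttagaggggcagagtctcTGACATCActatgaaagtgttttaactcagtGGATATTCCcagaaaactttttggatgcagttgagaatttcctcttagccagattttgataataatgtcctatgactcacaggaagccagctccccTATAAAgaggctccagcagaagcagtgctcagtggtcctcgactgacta
Selp: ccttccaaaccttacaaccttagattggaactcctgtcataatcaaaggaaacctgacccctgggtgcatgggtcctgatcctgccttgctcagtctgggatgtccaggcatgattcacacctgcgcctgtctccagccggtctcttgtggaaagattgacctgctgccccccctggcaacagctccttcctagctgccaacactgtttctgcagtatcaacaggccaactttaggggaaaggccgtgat
Icam1: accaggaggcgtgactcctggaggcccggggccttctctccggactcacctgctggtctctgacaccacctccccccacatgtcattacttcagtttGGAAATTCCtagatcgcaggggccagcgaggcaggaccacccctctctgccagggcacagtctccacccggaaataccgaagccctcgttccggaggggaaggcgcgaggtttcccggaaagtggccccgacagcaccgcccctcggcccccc
Sele held 1 match to each of the 3 motifs, the κB-like letters beginning 145 bases and the TATA letters 49 bases before the start, Icam1 held 1 κB-like match beginning 153 bases before it, and the windows of Selp and Itga4 held none. Of 27025 promoters of the same length, 7.22% held a κB-like match, 7.59% a CRE/ATF-like match and 13.0% the TATA letters. A match is a description of the letters only.

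In all, 4 of the 5 endothelial members were at least 1.5-fold higher in the blood endothelium of TLR9agonist_LW than in that of WT_LW, and none was that much lower. Among the 9483 genes with at least 50 UMIs in these cells, 6.55% were that much higher and 40.6% that much lower, and the median gene had a log2 ratio of −0.45. Besides both selectins the genes were Icam1 (ENSMUSG00000037405, chromosome 9, 21015985 to 21028817, plus strand) and Vcam1 (ENSMUSG00000027962, chromosome 3, 116109949 to 116129688, minus strand). Icam1 was measured at 249 CPM (235 to 263) in WT_LW and 1141 (1108 to 1175) in TLR9agonist_LW (4.59-fold, log2 ratio 2.20, interval 2.11 to 2.29). Vcam1 was measured at 152 CPM (141 to 163) and 842 CPM (814 to 871), which is 5.53-fold higher (log2 ratio 2.47, interval 2.35 to 2.58). The ratio of Vcam1 lay above that of 99.5% of the genes counted, that of Icam1 above 99.4%, that of Selp above 98.4% and that of Sele above 98.2%. Relative to the median gene the log2 ratios were 1.86 for Sele, 1.96 for Selp, 2.65 for Icam1 and 2.92 for Vcam1.

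Icam2 (ENSMUSG00000001029, chromosome 11, 106377656 to 106388075, minus strand) did not share this difference. Its level was 175 CPM (164 to 188) in the endothelium of WT_LW and 150.5 CPM (139 to 163) in that of TLR9agonist_LW (log2 ratio −0.22, interval −0.37 to −0.07). Relative to the median gene this ratio turned to 0.23. The 4 leukocyte members had 5 to 60 UMIs each in endothelium, between 1.27 and 12.3 CPM, and are read there as background. Cells that are not leukocytes held like amounts: in WT_LW Selplg stood at 12.3 CPM in endothelium, 13.4 in fibroblasts and 10.2 in keratinocytes, and Itgal at 8.78, 9.10 and 6.36 CPM.

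**Figure D2:**
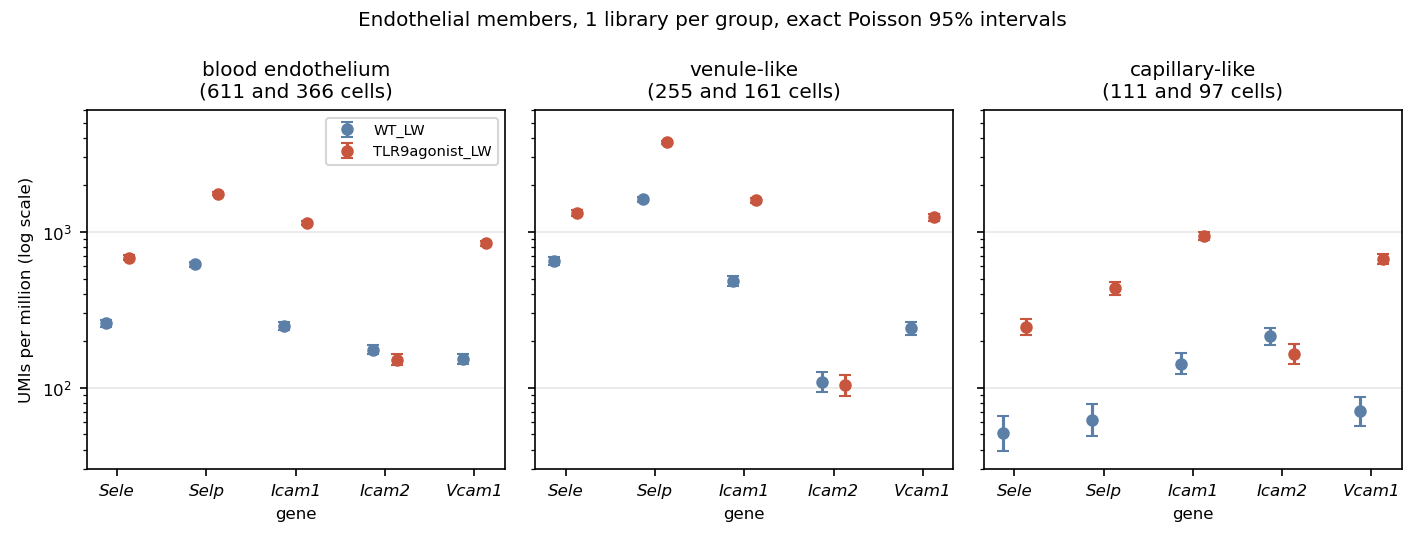
CPM (logarithmic axis) of the 5 endothelial members in all blood endothelial cells and in their venule-like and capillary-like subsets, 1 point per library with its exact Poisson 95% interval. Sele, Selp, Icam1 and Vcam1 are higher in TLR9agonist_LW in all 3 panels, and the Icam2 intervals of the libraries overlap in the venule-like and capillary-like panels.

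Blood endothelium was then divided by vessel-type markers, with 4 or more of its markers present in 10% or more of each subset's cells. Venule-like cells were 41.7% of the blood endothelium of WT_LW (255 cells, 37.8 to 45.8) and 44.0% of that of TLR9agonist_LW (161 cells, 38.8 to 49.2), so this share differed by less than its counting error. Capillary-like cells were 18.2% (111 cells) and 26.5% (97 cells), and artery-like cells 14.2% (87 cells) and 4.10% (15 cells, too few to compare). The venule-like subset carried the selectins: Selp stood at 1612 CPM in WT_LW and 3735 in TLR9agonist_LW there, against 62.2 and 432 CPM in capillary-like cells. Sele stood at 646 and 1320 CPM in venule-like and at 51.1 and 244 CPM in capillary-like cells. Icam2 had the opposite order, 109 and 103 CPM in venule-like and 214 and 165 CPM in capillary-like cells.

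Within each subset Sele, Selp, Icam1 and Vcam1 were at least 1.5-fold higher in TLR9agonist_LW, as were 8.51% of all genes counted in venule-like and 7.62% in capillary-like cells. In venule-like cells the log2 ratios were 1.03 for Sele (0.93 to 1.14), 1.21 for Selp (1.15 to 1.28), 1.71 for Icam1 (1.60 to 1.83) and 2.36 for Vcam1 (2.21 to 2.52). In capillary-like cells they were 2.26 for Sele (1.85 to 2.68), 2.80 for Selp (2.44 to 3.17), 2.72 for Icam1 (2.48 to 2.96) and 3.24 for Vcam1 (2.92 to 3.59). For each gene the capillary-like interval lay above the venule-like one, although the capillary-like cells still held the lower level in both libraries. Blood endothelial cells without a subset name (158 and 93 cells) had log2 ratios of 2.56 for Sele (2.22 to 2.91) and 2.63 for Selp (2.38 to 2.89). Their Icam1 ratio was 2.67 (2.44 to 2.90), so ratios of that size were not particular to capillary-like cells. Their Vcam1 ratio was 2.08 (1.83 to 2.33), with an interval that overlapped the venule-like one. These differences between the subsets are ones of counts in single libraries and were not tested over mice.

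Counts per cell gave the same order of the libraries. After thinning every cell to 1500 UMIs, a UMI of Sele was found in 19.8% of the endothelial cells of WT_LW (16.7 to 23.2, 591 cells) and in 37.2% of those of TLR9agonist_LW (32.2 to 42.3, 366 cells), against at most 0.316% of keratinocytes, a cell type that lacks E-selectin. For Selp the shares were 29.4% and 48.9% of endothelial cells (keratinocytes 1.15% and 0.552%). For Icam1 they were 23.0% and 61.2%, for Vcam1 14.6% (11.8 to 17.7) and 48.6% (43.4 to 53.9), and for Icam2 20.6% and 18.9%. Thinned keratinocytes had a UMI of Icam1 in 2.29% and 7.18%, of Vcam1 in 0.954% and 1.105% and of Icam2 in 0 and 0.158% of cells. Cells with a UMI of Vcam1 also held more of them, 1.57 on average in WT_LW and 2.61 in TLR9agonist_LW. Before thinning, endothelial cells had medians of 6485 and 9122.5 UMIs, and 20 cells of WT_LW and none of TLR9agonist_LW were left out as shallower than 1500. Keratinocytes had medians of 13264 and 22695.5 UMIs. Without thinning the endothelial shares were 30.6% and 58.5% for Sele, 42.4% and 63.7% for Selp, 46.2% and 83.1% for Icam1, 35.7% and 79.0% for Vcam1, and 53.5% and 60.7% for Icam2, whose order there was the reverse of that of its CPM and is not read.

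The 4 genes were also read together in each thinned cell. In WT_LW 52.8% of the endothelial cells had a UMI of none of Sele, Selp, Icam1 and Vcam1 (48.7 to 56.9) and 3.21% had all 4 (1.95 to 4.97). In TLR9agonist_LW 15.03% had none (11.5 to 19.1) and 16.9% had all 4 (13.2 to 21.2). Cells with all 4 were venule-like in most cases, 7.69% and 29.8% of that subset. Of the capillary-like cells 0 of 109 in WT_LW had all 4, with an exact interval up to 3.33%, and 5.15% of 97 did in TLR9agonist_LW. Capillary-like cells with none of the 4 were 76.1% in WT_LW (67.0 to 83.8) and 23.7% in TLR9agonist_LW (15.7 to 33.4).

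**Figure D3:**
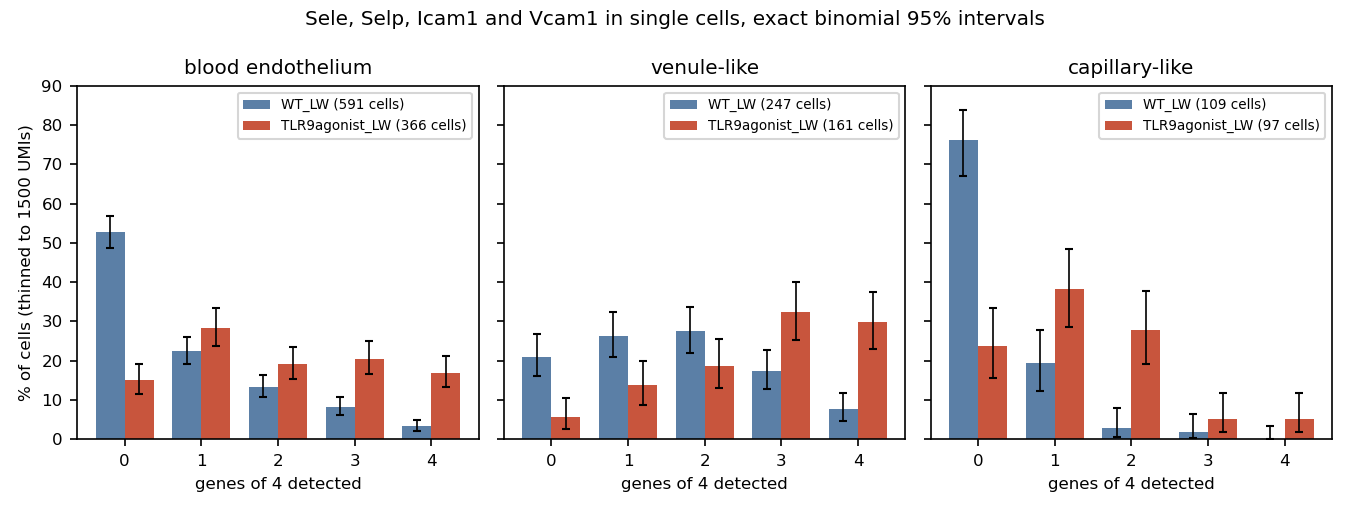
Percent of cells (axis from 0) with a UMI of 0, 1, 2, 3 or 4 of the genes Sele, Selp, Icam1 and Vcam1 after thinning to 1500 UMIs, in all blood endothelial, venule-like and capillary-like cells, with exact binomial 95% intervals. The bar for no gene is 52.8% in WT_LW and 15.03% in TLR9agonist_LW in the first panel, and the bars for 3 and 4 genes are higher in TLR9agonist_LW in all panels.

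Other measures moved with the libraries in the same cells. A list of 8 immediate-early and heat-shock genes that respond to tissue dissociation (Fos, Jun, Junb, Egr1, Atf3, Hspa1a, Hspa1b and Dusp1, listed after the data were seen) summed to 6148 CPM in the endothelium of WT_LW and 15210 CPM in that of TLR9agonist_LW. All 4 genes were higher on either side of the control cells' median of that sum. Among cells at or below it (306 and 58 cells) the log2 ratios were 1.54 for Sele, 2.53 for Selp, 3.34 for Icam1 and 3.04 for Vcam1, and among cells above it (305 and 308 cells) they were 1.014, 1.03, 1.66 and 2.23. The median share of mitochondrial UMIs in endothelium was 4.76% in WT_LW and 2.77% in TLR9agonist_LW.

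RNA of other cell types in the cells gated as endothelium differed too. Fibroblast markers summed to 1359 and 2372 CPM in WT_LW and TLR9agonist_LW (fibroblasts themselves 80398 and 94451), keratinocyte markers to 344 and 875 CPM, pericyte markers to 142 and 264 CPM, neutrophil markers to 51.9 and 787 CPM and macrophage markers to 333 and 130 CPM. The neutrophil list holds S100a8 and S100a9, and keratinocytes summed to 3293 and 16435 CPM on it. Which cell type made the RNA of that list was not tested. Of the markers of these lists, 1 neutrophil marker was at 0 in both libraries. In fibroblasts Vcam1 stood at 106 and 403 CPM and Icam1 at 27.8 and 164 CPM. Each was below the endothelium of the same library and higher in TLR9agonist_LW than in WT_LW. The part of these measures in the members' ratios was not tested beyond these values.

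Icam1 and Vcam1 were also measured outside the vessels. Fibroblasts held 106 CPM of Vcam1 in WT_LW (1830 UMIs) and 403 CPM in TLR9agonist_LW (13704 UMIs), higher in the latter (log2 ratio 1.93, interval 1.86 to 2.00), and 27.8 and 164 CPM of Icam1 (log2 ratio 2.56, interval 2.43 to 2.70). Thinned fibroblasts with a UMI of Vcam1 were 11.1% and 31.3%, and those with a UMI of Icam1 4.68% and 18.0% (keratinocytes as given above). Fibroblasts had the largest part of all Vcam1 UMIs in both libraries, 40.8% and 66.4%, ahead of macrophages and monocytes with 28.1% and 9.92% and blood endothelium with 16.6% and 16.1%. Their number among the cells used was also different, 1286 of WT_LW and 2755 of TLR9agonist_LW. In fibroblasts 4 of the 5 endothelial members were at least 1.5-fold higher (all genes 7.40%) and Icam2, at 1.62 and 1.03 CPM, was that much lower (all genes 25.4%), with a log2 interval of −1.42 to 0.11. Sele stood at 3.88 and 9.53 CPM in fibroblasts against 0.794 and 1.14 CPM in keratinocytes, and Selp stood at 3.48 and 5.38 CPM. T cells held no less Selp (5.89 and 6.83 CPM), so the Selp value of fibroblasts is read as background. The part of endothelial RNA in the Sele values was not tested.

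Pericytes held 18.3 CPM of Vcam1 in WT_LW and 71.7 CPM in TLR9agonist_LW (log2 ratio 1.97, interval 1.61 to 2.34), and Icam1 at 67.4 and 112 CPM (log2 ratio 0.74, interval 0.52 to 0.96). Both passed 1.5-fold, as 6.06% of all genes counted in pericytes did, but Icam1 no longer did, at 0.54, where each cell took the class of its cluster. Itga4, the leukocyte member that pericytes carried, stood at 83.6 and 45.9 CPM (log2 ratio −0.87, interval −1.15 to −0.59). That ratio was −0.56 with the stricter gate and −0.46 relative to the median gene, both short of 1.5-fold. The immediate-early and heat-shock sum was 11786 and 20719 CPM in these cells. Lymphatic endothelium (46 and 45 cells), the vessel type that drains leukocytes and fluid, had Icam1 at 73.5 and 301 CPM (log2 ratio 2.03, interval 1.46 to 2.65). It was the 1 of 2 members counted there that passed 1.5-fold (all genes 6.70% higher, 18.0% lower). In Schwann cells Icam1 stood at 9.55 and 27.6 CPM and Vcam1 at 39.1 and 75.0 CPM, and in keratinocytes Icam1 at 21.3 and 35.5 CPM and Vcam1 at 3.57 and 7.65 CPM. In both classes these 2 genes passed 1.5-fold upwards, beside 5.43% of all genes in Schwann cells and 5.28% in keratinocytes. Of the leukocyte members, 2 of 3 counted in Schwann cells and 4 of 4 in keratinocytes were that much lower (all genes 15.8% and 43.7%), at levels up to 10.7 CPM that are read as background, and in pericytes 3 of 3 were (all genes 35.0%).

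Among leukocytes Vcam1 was a macrophage gene. Macrophages and monocytes held 95.9 CPM in WT_LW and 281 CPM in TLR9agonist_LW (log2 ratio 1.55, interval 1.45 to 1.65), and 8.05% and 24.4% of the thinned cells had a UMI (keratinocytes 0.954% and 1.105%). Cells with one held 2.03 and 2.05 UMIs on average. Neutrophils had 0 Vcam1 UMIs of 106934 in WT_LW, where 3 UMIs would be 28.1 CPM, and 19 in TLR9agonist_LW (40.4 CPM). T cells stood at 9.48 and 18.5 CPM. In macrophages and monocytes Vcam1 and Selp (3.72 and 6.18 CPM) passed 1.5-fold upwards, as 6.85% of genes did. T cells held like levels of Selp (5.89 and 6.83 CPM), so the Selp value is read as background.

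**Figure D4:**
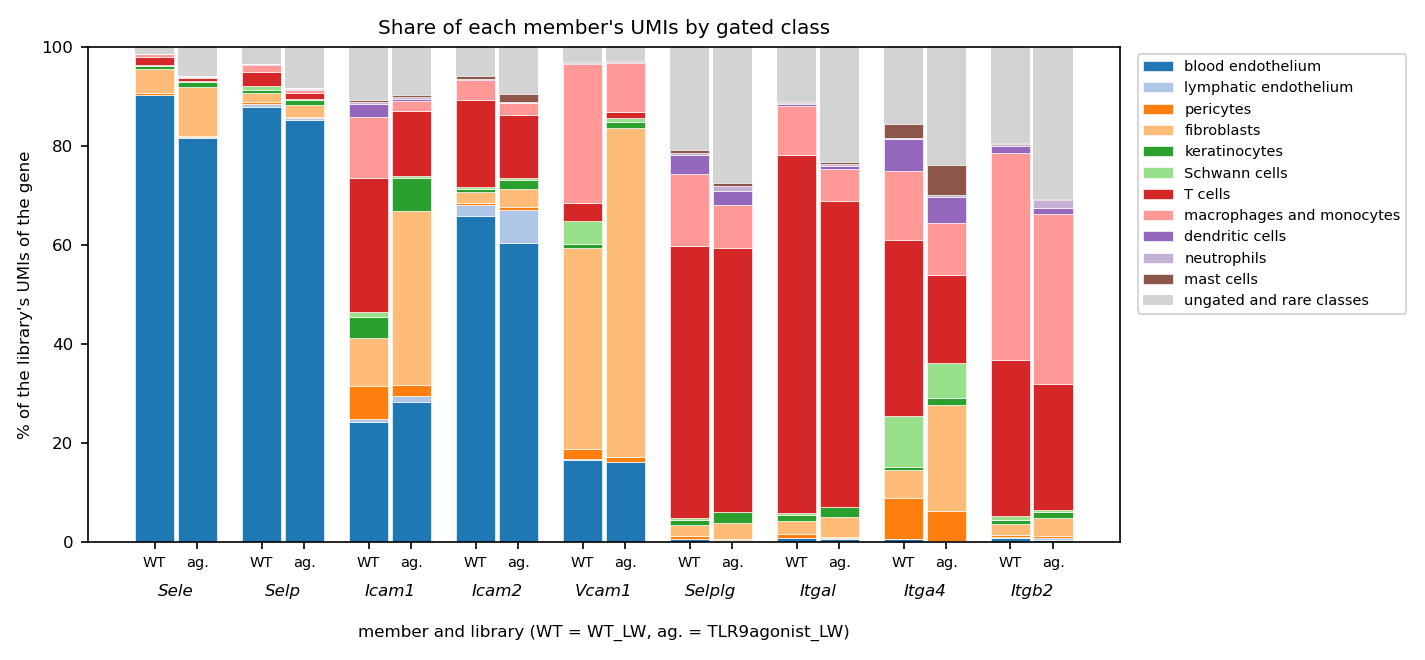
Percent of each library's UMIs of a member that came from each gated class, 2 bars per member (WT for WT_LW, ag. for TLR9agonist_LW), with cells of no class and of classes not compared in grey. Blood endothelium makes up most of the Sele, Selp and Icam2 bars, fibroblasts 40.8% and 66.4% of the Vcam1 bars, and T cells most of the Selplg and Itgal bars.

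Icam1 in leukocytes depended on the class. T cells held 80.1 CPM in WT_LW and 145 CPM in TLR9agonist_LW (log2 ratio 0.86, interval 0.76 to 0.96). Within them gamma delta T17-like cells, which make interleukin 17, stood at 107 and 280 CPM (log2 ratio 1.39, interval 1.16 to 1.62), and CD8 T-like cells at 92.9 and 75.3 CPM (log2 ratio −0.30, interval −0.71 to 0.09). Macrophages and monocytes were level, at 46.9 and 45.6 CPM. Neutrophils had 187 CPM from 20 UMIs and 153 CPM from 72 UMIs, and dendritic cells 96.1 and 67.3 CPM (log2 ratio −0.51, interval −0.99 to −0.05). The dendritic cell value depended on the gate, and was 0.03 where each cell took the class of its cluster. Mast cells stood at 23.2 and 41.6 CPM from 15 and 37 UMIs, past 1.5-fold, as 22.6% of genes were higher there. The immediate-early and heat-shock sum in T cells was 6525 and 11047 CPM. Among T cells at or below the control median of that sum the Icam1 ratio was 0.47 (0.32 to 0.63), short of 1.5-fold, and among those above it 1.07 (0.93 to 1.21).

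Over all leukocytes the 4 leukocyte members had log2 ratios from −1.13 for Itga4 to −0.41 for Selplg, and 3 of them were at least 1.5-fold lower in TLR9agonist_LW, as were 20.1% of all genes. In T cells 3 of the 4 were at least 1.5-fold lower and none higher, beside 27.9% of 11423 genes lower and 7.98% higher, with a median gene at −0.28. Selplg (ENSMUSG00000048163, chromosome 5, 113818536 to 113832644, minus strand) was the exception in T cells, at 341 CPM (332 to 350) in WT_LW and 244 (236 to 252) in TLR9agonist_LW (log2 ratio −0.48, interval −0.54 to −0.42), or −0.20 relative to the median gene. A UMI of it was found in 41.7% and 28.5% of thinned T cells, against 2.48% and 1.03% of keratinocytes.

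Selplg was carried by most leukocyte classes. In WT_LW the order of its levels was neutrophils (374 CPM, 267 to 509), T cells (341), dendritic cells (311, 281 to 342), macrophages and monocytes (116) and mast cells (94.4), where the intervals of neutrophils, T cells and dendritic cells overlapped, as did those of macrophages and mast cells. In TLR9agonist_LW T cells were at 244 CPM, dendritic cells at 216, neutrophils at 138, macrophages and monocytes at 77.9 and mast cells at 48.4 CPM. Among leukocyte classes the ratio was lowest in neutrophils, with a log2 value of −1.44 (−2.03 to −0.83) from 40 and 65 UMIs, a class in which 26.5% of all genes counted were at least 1.5-fold lower. Among T cells gamma delta T17-like cells stood at 404 CPM in WT_LW and 199 in TLR9agonist_LW (log2 ratio −1.02, interval −1.18 to −0.87), whereas CD8 T-like cells were at 498 and 450 CPM (log2 ratio −0.15, interval −0.31 to 0.02), a ratio of 0.05 relative to the median gene.

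Itgal (ENSMUSG00000030830, chromosome 7, 127296260 to 127335138, plus strand) and Itgb2 (ENSMUSG00000000290, chromosome 10, 77530252 to 77565708, plus strand), the chains of LFA-1, differed in where they were read. Itgal was a T cell gene, with 72.3% and 61.7% of its UMIs in T cells, and Itgb2, whose product pairs with several α chains, was shared with macrophages and monocytes (41.8% and 34.3% of its UMIs there). In T cells Itgal was measured at 254 CPM (247 to 262) in WT_LW and 128 (122 to 134) in TLR9agonist_LW (log2 ratio −0.99, interval −1.07 to −0.91). Itgb2 was measured at 121 CPM (116 to 126) and 58.5 CPM (54.7 to 62.6), lower in TLR9agonist_LW (log2 ratio −1.05, interval −1.16 to −0.93). In macrophages and monocytes Itgb2 stood at 206 and 155 CPM (log2 ratio −0.41, interval −0.51 to −0.31), and Itgal at 44.8 and 26.8 CPM (log2 ratio −0.74, interval −0.98 to −0.51). Itgal was the only leukocyte member at least 1.5-fold lower in that class, in which 15.3% of genes were. Relative to the median gene its ratio was −0.54, short of that fold. Other members passed it under alternatives, Itgb2 at −0.84 and Selplg at −0.67 with equal weight per cell, Itgb2 at −0.62 with the stricter gate, and Itga4 at −0.62 and Selplg at −0.61 with the gate smoothed over clusters.

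Both LFA-1 chains had the lower level in TLR9agonist_LW in each of the 4 T cell groups. The log2 ratios of Itgal ran from −1.44 in CD8 T-like cells (323 and 119 CPM) to −0.92 in regulatory T-like cells (186 and 98.53 CPM), and those of Itgb2 from −1.09 in regulatory T-like to −0.61 in CD8 T-like cells. For Itgb2 this was not far from the other genes in 2 of the groups: its ratio relative to the median gene was −0.29 in gamma delta T17-like cells, above that of 32.4% of genes, and −0.42 in CD8 T-like cells, above that of 21.3%. In regulatory T-like cells and in T cells without a subset name it lay above 4.67% and 8.02% of genes, and the Itgal ratios lay above 2.44% (CD8 T-like) to 10.5% (no subset name) of them. On either side of the control T cells' median immediate-early and heat-shock sum the ratios were −0.81 and −1.16 for Itgal, and −1.08 and −0.99 for Itgb2. Of the T cells, 5.33% in WT_LW and 18.3% in TLR9agonist_LW lay near the gate's threshold. Keratinocyte markers in them summed to 492 and 1603 CPM, fibroblast markers to 1776 and 3106 and neutrophil-list markers to 198 and 1858. Macrophage (339 and 182 CPM), pericyte (87.6 and 58.9) and endothelial markers (139 and 122) were lower. The part of this RNA in the members' T cell ratios was not tested.

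Itga4 (ENSMUSG00000027009, chromosome 2, 79255426 to 79333123, plus strand) was carried by leukocytes, Schwann cells and pericytes. In WT_LW dendritic cells held 239 CPM (214 to 267) and mast cells 221 CPM (186 to 261), with overlapping intervals, then neutrophils 122 CPM from 13 UMIs, T cells 104 CPM, Schwann cells 96.4 CPM, pericytes 83.6 CPM and macrophages and monocytes 52.6 CPM. Blood endothelium held 5.31 CPM. In TLR9agonist_LW mast cells held 172 CPM, dendritic cells 149 CPM, Schwann cells 70.4 CPM, pericytes 45.9 CPM, macrophages and monocytes 35.6 CPM and T cells 30.7 CPM. In WT_LW the intervals of T cells (98.9 to 109) and Schwann cells (88.3 to 105) overlapped, and in TLR9agonist_LW that of T cells (27.9 to 33.7) lay below those of Schwann cells (60.3 to 81.8) and pericytes (38.8 to 54.0). Itga4 was the only member past 1.5-fold in dendritic cells, lower in TLR9agonist_LW (log2 ratio −0.69, interval −0.995 to −0.39), where 23.6% of genes were that much lower and 6.96% higher. This call was lost under most alternatives, at −0.51 with the stricter cell filter, −0.27 with the gate smoothed over clusters, −0.21 with the stricter gate and −0.48 relative to the median gene, and Selplg passed the fold there, at −0.64, when cells were weighted equally. Dendritic cells were the class with the largest share of cells near the gate's threshold, 60.4% and 51.5%.

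T cells had the lowest Itga4 ratio of the compared classes with at least 50 UMIs, with 1762 UMIs in WT_LW and 441 in TLR9agonist_LW (log2 ratio −1.76, interval −1.91 to −1.60) that lay above that of 1.16% of genes. The subsets differed. In the T cells without a subset name Itga4 was at 127 and 25.9 CPM (log2 ratio −2.30, interval −2.52 to −2.08), and 17.2% and 3.19% of the thinned cells had a UMI (keratinocytes 0.573% and 0.0789%). CD8 T-like cells were at 159 and 164 CPM (log2 ratio 0.04, interval −0.25 to 0.32), with a UMI in 18.9% and 19.1% of cells. Regulatory T-like cells were at 47.1 and 30.9 CPM and gamma delta T17-like cells at 22.5 and 5.24 CPM. The share of the subsets differed as well: gamma delta T17-like cells, the subset with the lowest Itga4 level, were 11.9% of T cells in WT_LW and 27.6% in TLR9agonist_LW, and CD8 T-like cells 13.9% and 6.43%. The difference between subsets was not tested.

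**Figure D5:**
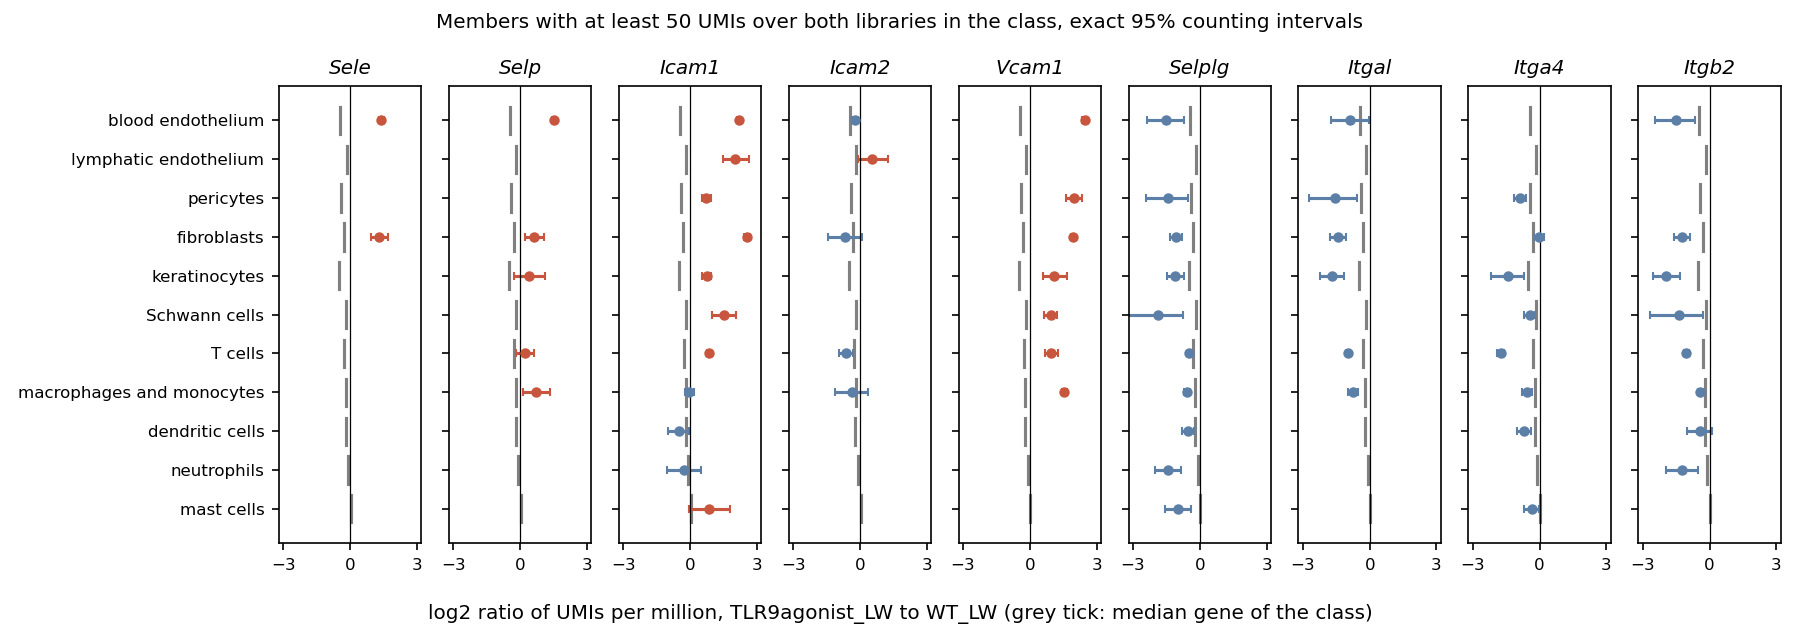
log2 ratio of CPM, TLR9agonist_LW to WT_LW, for each member in each gated class where it had at least 50 UMIs over both libraries, with exact 95% counting intervals (red above 0, blue below) and a grey tick for the median gene of the class. Icam1 and Vcam1 lie right of 0 in blood endothelium, pericytes and fibroblasts, and every point of Selplg, Itgal and Itgb2 lies left of 0.

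The rest of the cascade was read from a list of 51 genes written from general knowledge. In blood endothelium 36 of them were counted, of which 5 were at least 1.5-fold higher in TLR9agonist_LW and 12 that much lower (all genes 6.55% and 40.6%), with a median log2 ratio of −0.28 beside −0.45 for all genes. The 3 highest were the integrin gene Itgav (51.5 and 137 CPM, log2 ratio 1.41), Pvr, a nectin-like adhesion receptor (49.8 and 130 CPM, log2 ratio 1.38), and Ackr1, the atypical chemokine receptor of venules (183 and 358 CPM, log2 ratio 0.97), which is also a marker of the venule-like gate. The 3 lowest were Cd99l2 (48.2 and 21.4 CPM, log2 ratio −1.17), Rasgrp2 (15.9 and 8.14 CPM, log2 ratio −0.97) and the tyrosine sulfotransferase gene Tpst1 (28.4 and 15.3 CPM, log2 ratio −0.90). By role, the makers and carriers of selectin ligands had 0 higher and 3 lower of 11 counted, integrins 2 and 2 of 6, junction and transmigration genes 1 and 3 of 8, integrin activation genes 0 and 2 of 7, the shedding proteases Adam10 and Adam17 0 and 2, and the venule chemokine genes Ackr1 and Sdc4 2 and 0.

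In all leukocytes together 47 genes of that list were counted, 3 at least 1.5-fold higher and 17 that much lower (all genes 8.69% and 20.1%), with a median log2 ratio of −0.40 beside −0.22 for all genes. The highest were Podxl2, a sialomucin (1.30 and 2.93 CPM, log2 ratio 1.17), Itgav (95.3 and 178 CPM, 0.90) and the sialyltransferase gene St3gal6 (30.5 and 46.3 CPM, 0.60). The lowest were the collagen-binding integrin gene Itga1 (14.2 and 4.69 CPM, −1.60), Podxl (3.71 and 1.26 CPM, −1.56) and Itgax, an integrin gene of dendritic cells and macrophages (55.5 and 24.1 CPM, −1.20). In blood endothelium Podxl stood at 401 and 244 CPM. Cd34, also counted as lower in leukocytes (12.9 and 5.90 CPM), stood there at 770 and 549.5 CPM. These leukocyte values, and the low level of Podxl2 from 42 and 70 UMIs, are not separated from background. Of the 10 integrin genes on the list, 6 were at least 1.5-fold lower in leukocytes and 1, Itgav, was that much higher. Leukocyte totals also move with the mix of cell types, which differed between the libraries.

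Genes with the pattern most like each member were sought over 22 points, 11 classes in 2 libraries, among 13119 genes. The points share libraries and the correlations are descriptions. For Sele these were Sybu, B3gnt3 and Htr2a (Pearson r 0.94, 0.93 and 0.90), for Selp Cyyr1, 8430408G22Rik and Mmrn2 (0.92, 0.90 and 0.90), and for Icam2 S1pr1, She and Ccm2l (0.94, 0.94 and 0.92). Icam1 was nearest to Rnd1, Ifitm5 and Clec2d (0.82, 0.77 and 0.77) and Vcam1 to Cfb, Man2b2 and Rgl1 (0.90, 0.80 and 0.78). Selplg was nearest to Hmha1, Ptprc and Coro1a (0.97 each), Itgal to Rinl, Hmha1 and Arhgap4 (0.93, 0.92 and 0.91), Itgb2 to AB124611, Ncf4 and Susd3 (0.95 each) and Itga4 to Dock10, Adrbk2 and Arhgap15 (0.85, 0.83 and 0.815). Ptprc encodes CD45, the surface phosphatase of white blood cells, and S1pr1 the receptor for sphingosine 1-phosphate that resting endothelium carries.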

How the data were processed

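Single-cell suspensions of wound centres were sequenced as 10x 3′ libraries, and each library pooled the cells of several mice. The authors made the deposited UMI counts per gene and cell with Cell Ranger (4.0.0 per the file headers), as raw whole numbers with no normalization. The submitters' notes also name fastp, Seurat and the mm9 build, without saying which step used them. The count files hold gene identifiers and no coordinates, so gene positions were taken from a GRCm38 annotation by identifier and promoters from RefSeq (GRCm38.p6). A 3′ UMI counts a molecule whatever the length of the transcript.

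Barcodes under 500 UMIs or 300 genes, or over 15% mitochondrial UMIs, were dropped and the others passed (11443 in WT_LW and 13206 in TLR9agonist_LW). The automatic threshold of the doublet score marked none, so the highest scores were removed at 0.8% per 1000 cells (9.16% and 10.6%). A cell took the class whose marker score was at least 0.25 and led the next by at least 0.1, and classes with at least 30 cells in both libraries were compared. Vessel and T cell subsets needed a score of 0.2 and a lead of 0.1. UMIs were summed per class and library and divided by the class total (CPM). CPM carries exact Poisson intervals, a ratio the exact interval of 1 count given the sum of both, and a share the Clopper-Pearson interval, all at 95%. Genes with at least 50 UMIs over both libraries in a class were counted, past 1.5-fold between libraries and 2-fold between classes. Statistics were checked on simulated counts. With 1 library per group no test was made. Named were all members, the 3 highest and 3 lowest genes of the cascade list in endothelium and leukocytes, and the 3 genes most like each member by Pearson correlation of log2(CPM + 1) among genes with at least 200 UMIs. Members, marker lists and gene lists were chosen with earlier results of these data known. Alternatives were stricter filters and gates, doublets kept, a gate smoothed over clusters, equal weight per cell, centring on the median gene and other thinning depths. The work used scanpy 1.11.5, scipy 1.17.1, numpy 2.4.6, scikit-learn 1.9.0 and pandas 2.3.3 under Python 3.11.15.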

Additional observations from a re-analysis of the deposited data

Results flagged for a closer look

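The agonist to control ratio of Icam1 had opposite directions in 2 cell types, with a log2 value of 2.56 in fibroblasts and −0.51 in dendritic cells. The difference between these classes was not tested, and 60.4% and 51.5% of the dendritic cells of WT_LW and TLR9agonist_LW lay near the gate's threshold. With the gate smoothed over clusters the dendritic cell value was 0.03.

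Cells that the gate left without a class, which enter none of the comparisons above, held endothelial members at a higher level in TLR9agonist_LW than in the control library. The level of Sele was 1.82 CPM in WT_LW against 14.7 in TLR9agonist_LW (19 and 195 UMIs), and that of Selp 11.1 against 49.99 CPM (116 and 663 UMIs). Icam1 stood at 50.7 and 117 CPM and Vcam1 at 13.2 and 45.3 CPM. The endothelial gate markers summed to 197 and 162 CPM in the same cells, and the blood endothelial markers Kdr, Plvap, Emcn, Flt1 and Vwf, which the text above uses to check the class, to 79.4 and 106 CPM, higher in TLR9agonist_LW. The part of endothelial cells or RNA in these levels was not tested.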

How the results depend on the processing

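In all, 462 values were recomputed for 77 results. A ratio or share stayed if it lay within its 95% counting interval, and a count if it lay within 1.5 times its main value. By these rules 364 values stayed and 98 moved, and no ratio that passed its fold changed sign. Of the others, Icam1 in dendritic cells turned to 0.03 with the smoothed gate, Icam2 in endothelium to 0.23 relative to the median gene, Selp in T cells to −0.01 with doublets kept and Icam2 in macrophages to 0.08 with equal weight per cell. Icam1 in macrophages, near 0, was 0.21 with doublets kept, 0.01 with the stricter gate and 0.16 relative to the median gene. The counts of members past the fold in endothelium stayed within 1.5 times under each alternative run. In blood endothelium the log2 ratio of Selp was 1.59 with the stricter cell filter and 1.39 with the stricter gate, and weighting cells equally gave 1.53 for Sele and 2.02 for Icam1. Relative to the median gene the values were 1.86 for Sele, 1.96 for Selp, 2.65 for Icam1, 0.23 for Icam2 and 2.92 for Vcam1. With cells above the control median of the immediate-early and heat-shock list left out, an alternative chosen after seeing the data, they were 1.54 for Sele, 2.53 for Selp, 3.34 for Icam1, −0.48 for Icam2 and 3.04 for Vcam1. In T cells the smoothed gate gave −0.60 for Selplg, and the stricter gate −0.38 for Selplg, −1.54 for Itga4 and −0.88 for Itgb2. Equal weight per cell gave −0.56 for Selplg, −1.08 for Itgal and −1.99 for Itga4 there, and centring on the median gene −0.20 for Selplg, −0.71 for Itgal, −1.47 for Itga4 and −0.76 for Itgb2. The cause of these shifts was not tested, except that centring takes off the median by construction. All 10 shares of endothelial cells moved with thinning to 3000 UMIs and again without thinning. Leaving out barcodes found in both libraries, also chosen after seeing the data, moved none of the values recomputed. No paired analysis was possible because each group had 1 library. Neutrophils, lymphatic endothelium and dendritic cells had under 200 cells per library, as did mast cells in WT_LW (169 cells). Most members had too few UMIs for a ratio in each of these classes.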
